A study of Mus musculus with 6 samples.

Results

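YTHDC1 peaks were examined in 8 genes of the machinery that carries messenger RNA out of the nucleus: Thoc1, Thoc2, Thoc5, Thoc6 and Thoc7 of the THO complex, the helicase gene Ddx39b, the adaptor gene Alyref and the export receptor gene Nxf1. They are 8 of 22380 protein-coding genes in GENCODE vM1 for the mouse genome mm9, and a peak was assigned to a gene when it lay inside the gene's interval on the strand of its RNA. YTHDC1 is a nuclear protein that reads N6-methyladenosine (m6A), and LACE-seq maps its contacts on RNA by UV crosslinking, immunoprecipitation and reverse transcription that stops at the crosslink. Reads ran opposite to the RNA, so the RNA strand of a gene is the strand opposite to the deposited peak. The 6 libraries were made with the same YTHDC1 antibody, and their labels name no knockout or depletion of YTHDC1. ASC-48 hr are satellite cells, the stem cells of skeletal muscle, sorted from mouse hindlimb by a fluorescent reporter and cultured for 48 hr; their 4 libraries were a pair of technical replicates (T1, T2) for each of 2 biological replicates (B1, B2). C2C12 is an established mouse myoblast line, grown in serum-rich medium and represented by 2 libraries made from many more cells. GEO's labels call the 2 C2C12 libraries biological replicates, whereas the study's text calls them technical. The paper sorted satellite cells from Pax7-nGFP mice and from Ythdc1 control and knockout mice with an EYFP reporter. It does not name the mouse line used for LACE-seq. The age and sex of the mice used for LACE-seq were not given in the sources used here. No library labelled as an unspecific antibody or as YTHDC1-depleted cells was used here.

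Export of messenger RNA begins during transcription and splicing. The THO complex joins the helicase DDX39B (also called UAP56) and adaptors such as ALYREF in the TREX complex, which is loaded onto spliced RNA. The adaptor then hands the RNA to NXF1, which takes it through the nuclear pore. YTHDC1 is itself known to take part in both splicing and export, so these genes encode machinery that acts beside it, and the peaks below concern the transcripts of these genes rather than the proteins.

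The ASC libraries held 7925 to 19448 peaks and the C2C12 libraries 60540 and 71992. A peak is listed only above a number of reads per 20-nt bin that differed between libraries, with a lowest value of 4 in B2 T2, 5 in the other ASC libraries and 6 in both C2C12 libraries. A gene with no peak can therefore still have had reads. Total read numbers of the libraries were not given in the files, and a peak depends on how much of an RNA is present as well as on binding, so levels of binding per RNA molecule cannot be read from these values, nor can fewer cells of a type be told from less RNA per cell. Of 4 genes that mark satellite cells and myoblasts, Pax7 held 1 and 1 peaks in T1 and T2 of B1, 2 and 10 in those of B2, and 0 and 1 in C2C12 replicates 1 and 2. In the same order Des held 0 and 3, 1 and 4, and 18 and 17 peaks, Myod1 held 0 and 2, 1 and 6, and 5 and 3, and Myf5 held 0 and 0, 1 and 0, and 2 and 2. Peaks in all 4 markers were thus not listed in every library: B1 T1 had them in Pax7 alone. Markers of other cells of muscle (Pdgfra, Ly6a, Pecam1, Ptprc and Acta2) held 0 peaks in every ASC library, whereas in C2C12 all but Ptprc held at least 1 peak in each library.

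The helicase gene Ddx39b held most of the C2C12 peaks. In C2C12 replicate 1 the 8 genes held 27 peaks on the strand of the RNA, of which 20 were in Ddx39b, 5 in Thoc2, 1 in Nxf1 and 1 in Thoc1. In C2C12 replicate 2 they held 38 peaks, of which 24 were in Ddx39b, 8 in Thoc2, 4 in Alyref and 2 in Nxf1. Thoc5, Thoc6 and Thoc7, which encode other THO subunits, held 0 peaks in each of the 6 libraries. In ASC-48 hr the 8 genes held 0 and 1 peaks in T1 and T2 of B1 and 1 and 5 in those of B2, so that binding was listed in Ddx39b in 3 libraries, and in Alyref and Thoc1 in B2 T2. Over all 6 libraries there were 72 peaks on the strand of the RNA, 3 on the other strand and 0 on G runs (at least 10 G in a row within 20 nt on the strand of the reads).

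**Figure D1:**
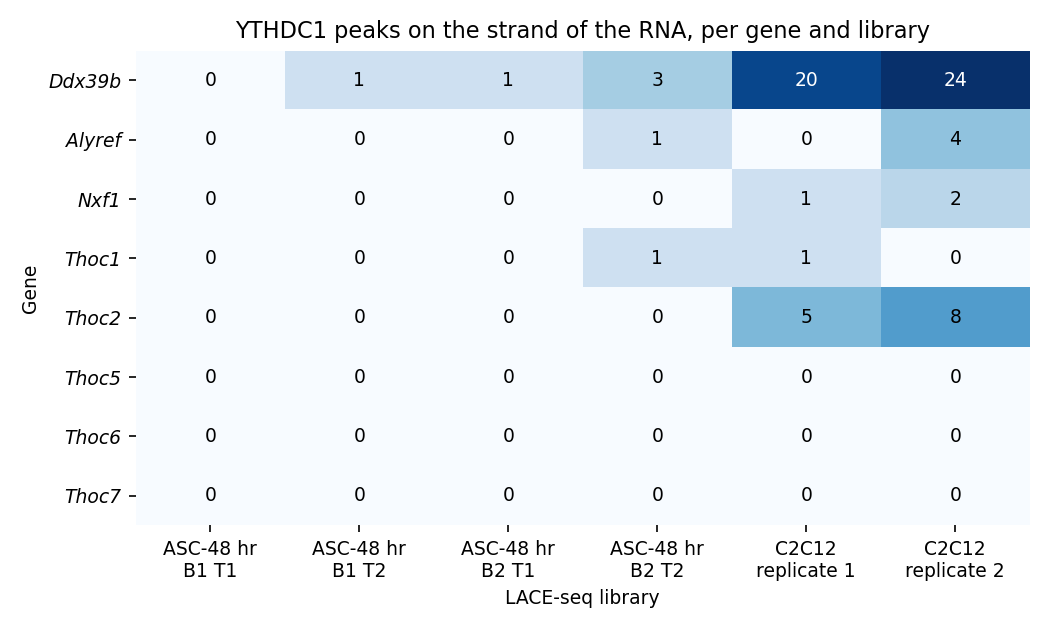
Number of YTHDC1 peaks on the strand of the RNA in each of the 8 genes (rows) and each of the 6 LACE-seq libraries (columns), with darker blue for more peaks on a square-root scale. Ddx39b holds 20 and 24 peaks in the C2C12 libraries, while Thoc5, Thoc6 and Thoc7 hold 0 throughout.

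A C2C12 shared peak is a replicate 1 peak that shares at least 1 nt with a replicate 2 peak of the same strand. There were 15 in the 8 genes, 12 in Ddx39b (80%) and 3 in Thoc2, so 2 of the 8 genes held one. Among all protein-coding genes 4789 of 22380 held at least 1 (21.4%), and the count of 2 of 8 is near that background. The median number of shared peaks per gene was 0 in the 8 genes and 0 over all protein-coding genes. Peaks were listed in either C2C12 library for 5 of the 8 genes, against 41.4% of protein-coding genes, with 4 of the 8 in replicate 1 (32.8% of protein-coding genes) and 4 of the 8 in replicate 2 (36.6%). Peaks were listed in any ASC library for 3 of the 8, against 23.9%. Longer genes held shared peaks more often: with genes ordered by length into 4 classes of equal size, the share was 10.8%, 15.8%, 22.7% and 36.2% from the shortest class to the longest. Ddx39b is 11962 nt long and falls in class 2, with Alyref, Nxf1, Thoc6 and Thoc7, whereas Thoc1 and Thoc5 fall in class 3 and Thoc2, at 125684 nt, in the longest. At least 12 shared peaks, the number in Ddx39b, were found in 359 protein-coding genes (1.6%), and by that number Ddx39b ranked 309. At least 3, the number in Thoc2, were found in 8.29%.

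Ddx39b lies on the plus strand at chr17:35378691-35390652 and has 6 annotated transcripts and, on the same strand, a pair of genes for the small nucleolar RNA SNORD83. Of its 12 shared peaks, 10 (83.3%) lay in intron 6 of the main coding transcript, chr17:35386015-35388191, a stretch of 2177 nt that makes up 18.2% of the gene. Replicate 1 had 13 of its 20 Ddx39b peaks in this intron (65%) and replicate 2 had 16 of 24 (66.7%). That is 5.97 and 7.35 peaks per kb in replicates 1 and 2, against 0.715 and 0.818 per kb in the rest of the gene. Reads followed the same pattern: the peaks in the intron covered 260 and 360 nt with means of 11.4 and 9.33 reads per bin, and those in the rest of the gene covered 140 and 200 nt with means of 7.43 and 6.9. Both libraries thus had their most numerous and highest Ddx39b peaks in 1 intron.

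The 10 shared peaks of intron 6 ran from 16 nt after its 5′ splice site to 41 nt before its 3′ splice site, with 80 to 440 nt between the starts of neighbours. The highest, at chr17:35387041-35387060, had 26 and 20 reads per bin in replicates 1 and 2 (23 ± 4.24, SD, n = 2). The next highest, at chr17:35387481-35387500, had 21 and 10 reads (15.5 ± 7.78, SD, n = 2). Among all C2C12 shared peaks of protein-coding genes, 78 (0.402%) had a mean of at least 23 reads, the highest mean being 54. The third in height, at chr17:35386301-35386320, had 14 and 13 reads (13.5 ± 0.707, SD, n = 2). The peak at chr17:35386661-35386680 had 16 and 6 reads in C2C12 (11 ± 7.07, SD, n = 2) and is the bin of intron 6 that ASC library B2 T2 also listed, with 4 reads. Replicate 1 had more reads in 6 of the 10 peaks, replicate 2 in 3, and 1 was equal; the largest difference between the 2 libraries was 11 reads, as large as the median of the 10 means (11).

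The 20-nt sequences of these peaks are shown because the intron holds 10 of the 15 shared peaks of the 8 genes; it holds 13 of the 27 peaks of replicate 1 and 16 of the 38 of replicate 2. They are mm9 sequence on the strand of the RNA (plus), 5′ to 3′, with GAC, the centre of the m6A consensus, or GGAC in capitals where the bin holds it. The last line is a peak of replicate 2 alone (7 reads, chr17:35387001-35387020), the nearest peak upstream of the highest peak.
Ddx39b intron 6, chr17:35387041-35387060: ggtttctgtGACcctgcctt
Ddx39b intron 6, chr17:35387481-35387500: cagagaggtGACctggcctg
Ddx39b intron 6, chr17:35386301-35386320: gggcaaaattttgtgcccta
Ddx39b intron 6, chr17:35386661-35386680: gcggatggcagccgcggagg
Ddx39b intron 6, chr17:35387001-35387020: cagctgtgGGACttatttga

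The bins of both highest peaks hold GAC, and no other shared peak of the intron, shown or not, holds it within its bin. No shared peak of the intron holds GGAC within its bin. Among the lines shown, only the last, from replicate 2 alone, does. Of the 10 shared peaks of the intron, 1 had GGAC within 20 nt, and 9 had a 20-nt sequence that occurs once in the genome. Over all 15 shared peaks of the 8 genes, GGAC lay within 20 nt on the strand of the RNA in 2 (13.3%, exact 95% interval 1.66 to 40.5) and GAC in 8 (53.3%, 26.6 to 78.7), against 20% and 56.3% of the 19421 shared peaks of all protein-coding genes. The number of peaks is too small for either share to be told from that background. A match of letters does not show that a base is methylated.

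**Figure D2:**
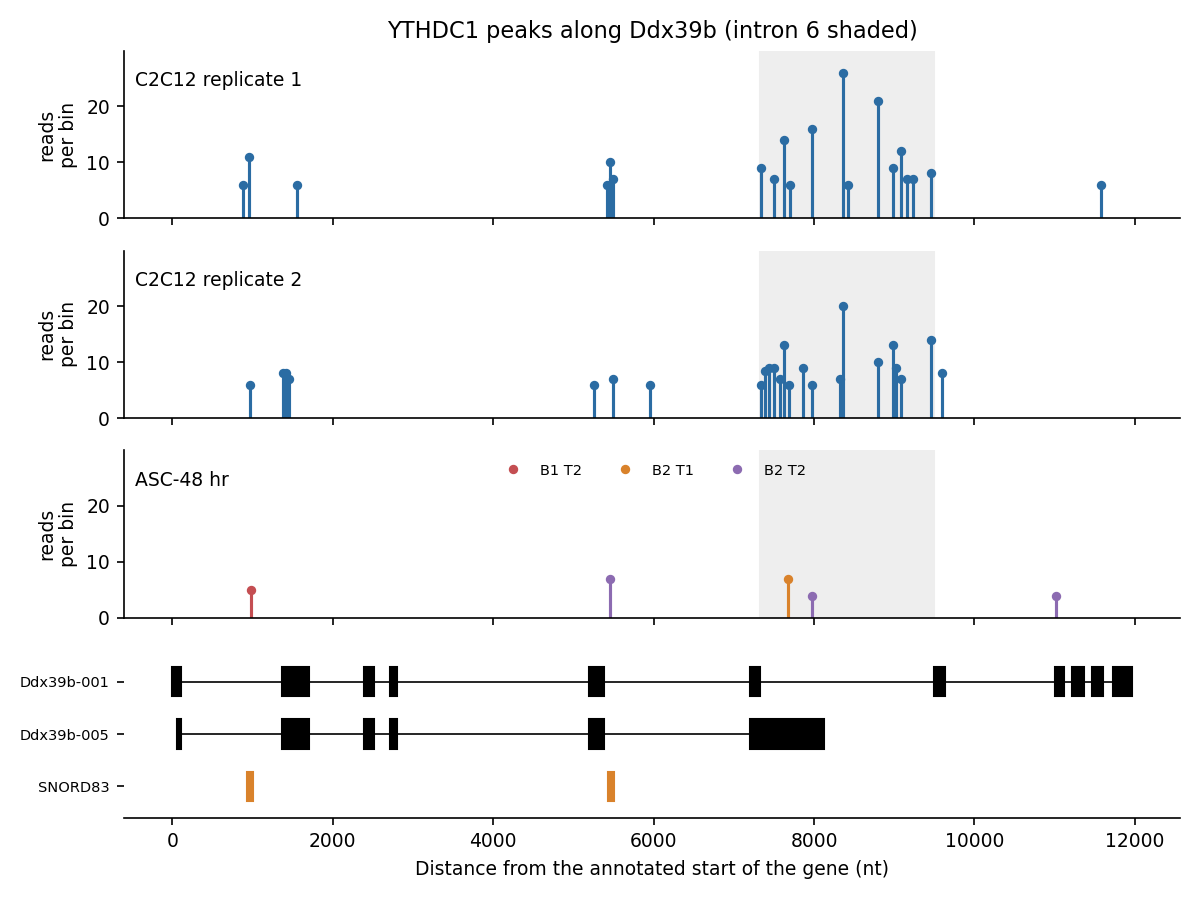
YTHDC1 peaks along Ddx39b, with distance in nt from the annotated start of the gene on the x axis and reads per 20-nt bin on the y axis, for each C2C12 library and for the ASC-48 hr libraries B1 T2, B2 T1 and B2 T2 (B1 T1 had no peak); below are the exons (black) of the main transcript Ddx39b-001 and of Ddx39b-005, and both SNORD83 genes (orange). In the shaded intron 6, C2C12 replicate 1 has 13 of 20 peaks and replicate 2 has 16 of 24.

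Intron 6 held many shared peaks for its length, but it was not the densest. It held 4.59 shared peaks per kb, and 72 introns of protein-coding genes had a higher density. That count set no lower limit on length or on the number of peaks. It therefore takes in very short introns, such as one of 2 nt with 1 shared peak, where density says little about binding. It also takes in introns with more shared peaks than intron 6, such as that of Slc25a37 given below. Of 185444 introns of the main transcripts of protein-coding genes, 3024 (1.63%) held at least 1 shared peak, with a median of 1 in those, and 85 (0.0458%) held 10 or more. Those 85 had a median length of 37410 nt. Among the 119985 introns no longer than intron 6 of Ddx39b, 2 held at least 10 shared peaks. Both limits are the values of intron 6 itself, picked as the Ddx39b intron with most shared peaks. It is therefore 1 of the 2 by construction, here and in the single libraries below, and the count is a description only. The other is intron 2 of Slc25a37, the gene of the mitochondrial iron carrier mitoferrin-1, with 18 in 1756 nt; it was singled out after its value was seen. In each library alone, the same 2 introns held at least as many peaks as Ddx39b intron 6 among introns no longer than it, with 23 and 21 peaks in Slc25a37 against 13 and 16 in Ddx39b. The annotation lists a transcript of Ddx39b without coding sequence, Ddx39b-005, whose last exon reads 801 nt into intron 6 (36.8% of it). That stretch held 5 of the 10 shared peaks, and the other 5 lay beyond it, in sequence that the annotation gives as intronic in every transcript.

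**Figure D3:**
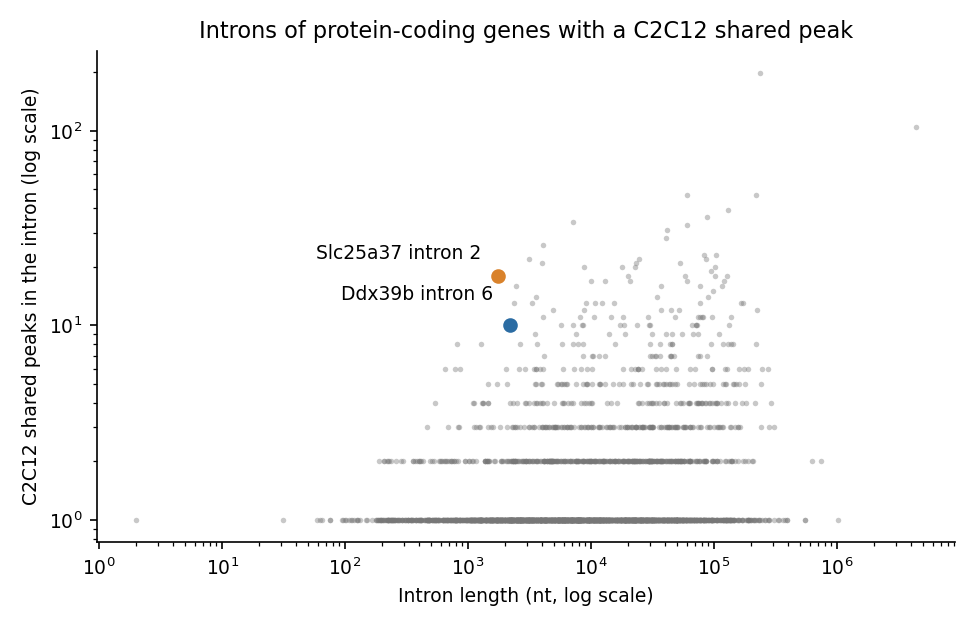
Introns of protein-coding genes that hold at least 1 C2C12 shared peak, with intron length in nt on the x axis and the number of shared peaks on the y axis, both on log scales. Intron 6 of Ddx39b (blue, 2177 nt, 10 peaks) and intron 2 of Slc25a37 (orange, 1756 nt, 18 peaks) are the only introns of at most 2177 nt with 10 or more.

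The other 2 shared peaks of Ddx39b lay on the SNORD83 genes, which encode box C/D small nucleolar RNAs, a class that is cut out of introns and guides ribose methylation of other RNAs. One was at chr17:35379641-35379660, in intron 1 of the main transcript and the 5′ UTR of another, with 11 and 6 reads per bin in replicates 1 and 2 (8.5 ± 3.54, SD, n = 2). The other was at chr17:35384181-35384200, in intron 5, with 7 and 7 reads. Reads from the snoRNA and from the host transcript run on the same strand and cannot be told apart. Outside intron 6 and the snoRNA genes no Ddx39b peak was shared. There, replicate 1 had 1 peak each in intron 1 and in coding exons 2 and 10, and replicate 2 had 3 in the 5′ UTR of exon 2 and 1 each in coding exons 5 and 7 and in intron 5.

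In ASC-48 hr, Ddx39b held 5 peaks. B1 T2 had 1 peak of 5 reads on SNORD83 in intron 1, at chr17:35379661-35379680. B2 T1 had 1 of 7 reads in intron 6, at chr17:35386361-35386380. B2 T2 had 1 of 7 reads on SNORD83 in intron 5 (chr17:35384141-35384160), 1 of 4 reads in intron 6 (the bin chr17:35386661-35386680 given above) and 1 of 4 reads in coding exon 8 (chr17:35389701-35389720). No position was listed in more than 1 ASC library, so none was replicated within ASC-48 hr. Of the 5 peaks, 4 overlapped a peak of at least 1 C2C12 library, as did 4 of the 7 ASC peaks in the 8 genes (57.1%), against 3333 of 13244 ASC peaks in protein-coding genes (25.2%). These 4 are the same Ddx39b peaks, and they include those on SNORD83. The ASC peaks of Alyref and Thoc1 overlapped none, so the share rests on 1 gene. Of the 5 Ddx39b peaks, B1 held 1 and B2 held 4. B2 T2 is the ASC library with the most peaks. Genes with a peak made up 6.53% and 8.66% of protein-coding genes in T1 and T2 of B1, and 7.97% and 17.1% in those of B2.

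Thoc2 encodes the large scaffold subunit of THO. The gene lies on the minus strand at chrX:39148168-39273851 and held 5 and 8 peaks in C2C12 replicates 1 and 2, 3 of them shared, and 0 in ASC-48 hr on the strand of the RNA. At 0.0239 shared peaks per kb its density was far below that of Ddx39b (1.00 per kb). The shared peak at chrX:39166841-39166860 had 7 and 10 reads per bin (8.5 ± 2.12, SD, n = 2) and lay in intron 32 of the main transcript, which is 3′ UTR in a shorter one. Around it the 1455 nt of intron 32 held 2 peaks in replicate 1 and 3 in replicate 2, the most peaks of any Thoc2 intron. The shared peak at chrX:39158841-39158860, in intron 36, had 10 and 6 reads (8 ± 2.83, SD, n = 2), and its sequence occurs 189 times in the genome. The shared peak at chrX:39221521-39221540, in intron 7, had 7 and 8 reads (7.5 ± 0.707, SD, n = 2) and a sequence found once.

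The sequences of these 3 shared peaks are given to set the unique ones beside the repeated one, on the strand of the RNA (minus strand of mm9), with GAC in capitals where present; none holds it.
Thoc2 intron 32, chrX:39166841-39166860: ctgctttaagcagtcctttt
Thoc2 intron 7, chrX:39221521-39221540: gtgtggtcttactctaatgt
Thoc2 intron 36, found 189 times: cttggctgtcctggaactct

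Several of the remaining Thoc2 peaks lay in repeated sequence. Each C2C12 library had a peak in intron 15, of 6 and 7 reads, at sites 160 nt apart whose 20-nt sequences occur 46012 and 43573 times in the genome. Another replicate 2 peak, of 9 reads, lay outside the main transcript in an intron of another and has a sequence found 62 times. Since the authors allowed a read up to 10 positions, the site from which such reads came cannot be told. On the strand opposite to the RNA of Thoc2, B1 T1 and B1 T2 listed the same bin, chrX:39255061-39255080, in intron 1, with 5 and 7 reads; no C2C12 library listed it.

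Nxf1 encodes the export receptor itself. The gene lies on the plus strand at chr19:8831593-8845399, has 1 annotated transcript with 21 exons, and held 1 peak in C2C12 replicate 1, 2 in replicate 2 and 0 in ASC-48 hr. Intron 10 of NXF1 is known in human as a retained intron with a constitutive transport element, an RNA structure that NXF1 binds. In the mouse gene, intron 10 (chr19:8839522-8841286, 1765 nt) held the 1 peak of replicate 1, of 7 reads, and 1 of the 2 peaks of replicate 2, also of 7 reads. They lay 529 and 489 nt from the 5′ splice site, 40 nt apart, and do not overlap, so they do not count as shared. With shared peaks defined as peaks within 100 nt of each other, Nxf1 held 1. The remaining replicate 2 peak, of 6 reads, was in coding exon 5.

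The sequences of the neighbouring peaks of Nxf1 intron 10 are shown on the strand of the RNA (plus) because they are the closest pair found in the receptor gene; each occurs once in the genome and neither holds GAC, although GGAC lies within 20 nt of the replicate 2 peak.
Nxf1 intron 10, replicate 2, chr19:8840001-8840020: tcatgatccacttagccaag
Nxf1 intron 10, replicate 1, chr19:8840041-8840060: gcccatgctgatgttgatgc

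**Figure D4:**
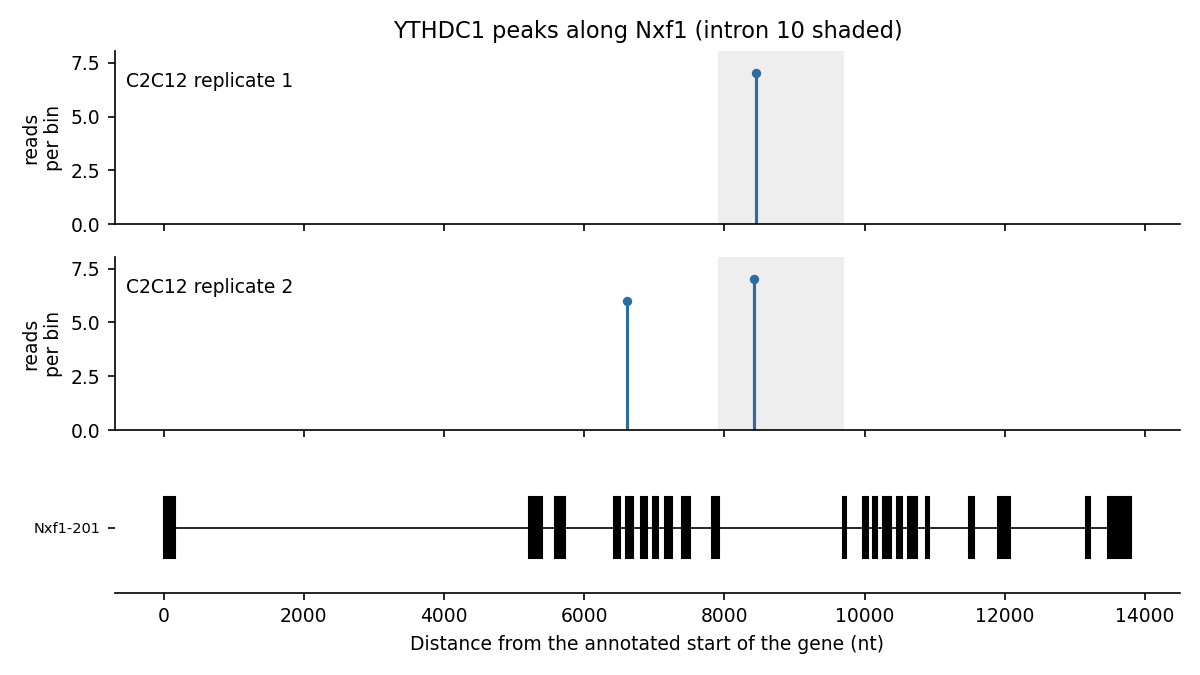
YTHDC1 peaks along Nxf1 in both C2C12 libraries, with distance in nt from the annotated start of the gene on the x axis and reads per 20-nt bin on the y axis; the exons of its transcript are drawn below and intron 10 is shaded. Each library has 1 peak of 7 reads in the intron, and the peaks lie 40 nt apart.

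Alyref encodes the adaptor that joins TREX to NXF1; GENCODE vM1 names the gene Thoc4. It lies on the minus strand at chr11:120453435-120459679. C2C12 replicate 1 listed 0 peaks and replicate 2 listed 4, so none was shared. Of the 4, 3 lay in the 3′ UTR, with 6, 8 and 6 reads, and 1 of 6 reads in the first coding exon, at chr11:120459641-120459660. In ASC-48 hr, B2 T2 had 1 peak of 5 reads in the first coding exon, at chr11:120459441-120459460, and B1 T2 had 1 of 5 reads in that exon on the other strand. The difference between the 2 C2C12 libraries rests on peaks of 6 to 8 reads, where the lowest number listed in either is 6.

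The THO subunit genes other than Thoc2 gave little or nothing. Thoc1, on the plus strand of chromosome 18, held 1 peak of 8 reads in C2C12 replicate 1, in intron 6, whose sequence occurs 42219 times in the genome, and 1 peak of 6 reads in ASC library B2 T2, in coding exon 19, found once. Thoc5 (chr11:4795323-4828870, plus strand), Thoc6 (chr17:23805581-23810849, minus strand) and Thoc7 (chr14:14781528-14793739, minus strand) held 0 peaks on either strand in all 6 libraries. Annotated genes overlap each of the 5 THO genes: Usp14 overlaps Thoc1, the pseudogene Gm7657 Thoc2, Hcfc1r1 Thoc6 and Gm11100 Thoc7, each on the opposite strand, and the pseudogene AA413626 overlaps Thoc5 on the same strand. With Thoc1, 4 of the 5 THO genes examined thus had no shared peak. Most protein-coding genes had none either, since 21.4% held one. A peak in either C2C12 library was listed for 41.4% of protein-coding genes and in any ASC library for 23.9%. The absence of peaks is therefore not particular to these THO genes.

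By region, 8 of the 15 shared peaks in the 8 genes were intronic in every transcript (53.3%, exact 95% interval 26.6 to 78.7), 5 lay in an exon of a transcript without coding sequence (33.3%, 11.8 to 61.6), 1 in a 3′ UTR, 1 in a 5′ UTR and 0 in a coding exon (0 to 21.8). Among the 19421 shared peaks of all protein-coding genes the shares were 32.5% intronic, 1.4% in exons of transcripts without coding sequence, 19.6% in 3′ UTRs, 4.65% in 5′ UTRs and 41.8% in coding exons. By the main transcript of each gene, all 15 were intronic (100%, 78.2 to 100), against 32.8% of all shared peaks. As 10 of the 15 lie in 1 intron, these are not independent draws from the genes, and the intervals cover counting error only. In the libraries taken singly, coding exons held 2 of the 27 peaks of replicate 1 and 4 of the 38 of replicate 2, and 3′ UTRs held 2 and 5. Within 20 nt of a snoRNA gene lay 2 of the 15 (13.3%, 1.66 to 40.5), both in Ddx39b, against 0.963% of 19006 shared peaks of protein-coding genes, each peak here being counted once where genes overlap.

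Other genes of the export pathway were taken from a list of 38, of which 16 (42.1%) held a C2C12 shared peak, 84 peaks in all, against 21.4% of all protein-coding genes. The list was chosen with earlier results of these data known and was not matched to that background in gene length or expression. In the longest class of protein-coding genes the share was 36.2%. The median over the 38 genes was 0 shared peaks. Zc3h11a, whose product is a zinc finger protein that associates with TREX, held 40, with 34 intronic, 5 in coding exons and 1 in a 3′ UTR. Acin1, whose product acinus is part of a complex that binds near exon junctions, held 18, with 8 intronic, 6 in exons of transcripts without coding sequence, 3 in coding exons and 1 in a 3′ UTR. Ddx3x, which encodes an RNA helicase, held 4, with 2 in the 3′ UTR, 1 in a coding exon and 1 in an intron. The nuclear basket gene Tpr held 4 and the pore gene Nup214 held 3, all in coding exons. Ddx39, the close paralogue of Ddx39b, held 0, as did Thoc3, another THO subunit gene.

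By group, shared peaks were found in 5 of 9 further THO and TREX genes, 3 of 5 export receptor genes, 5 of 9 genes of the pore and of remodelling, 2 of 6 TREX-2 genes, 1 of 5 exon junction genes, 0 of 3 cap binding genes and in Cpsf6, 0. The share over all protein-coding genes was 21.4%. The groups hold at most 9 genes each, and differences between them were not tested. Ddx39b thus held more than any other export gene examined except Zc3h11a and Acin1. In ASC-48 hr, 13 of the 38 genes held a peak in at least 1 library, 28 peaks in all, against 3 of the 8 genes and 7 peaks. Over all protein-coding genes the share with such a peak was 23.9%.

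**Figure D5:**
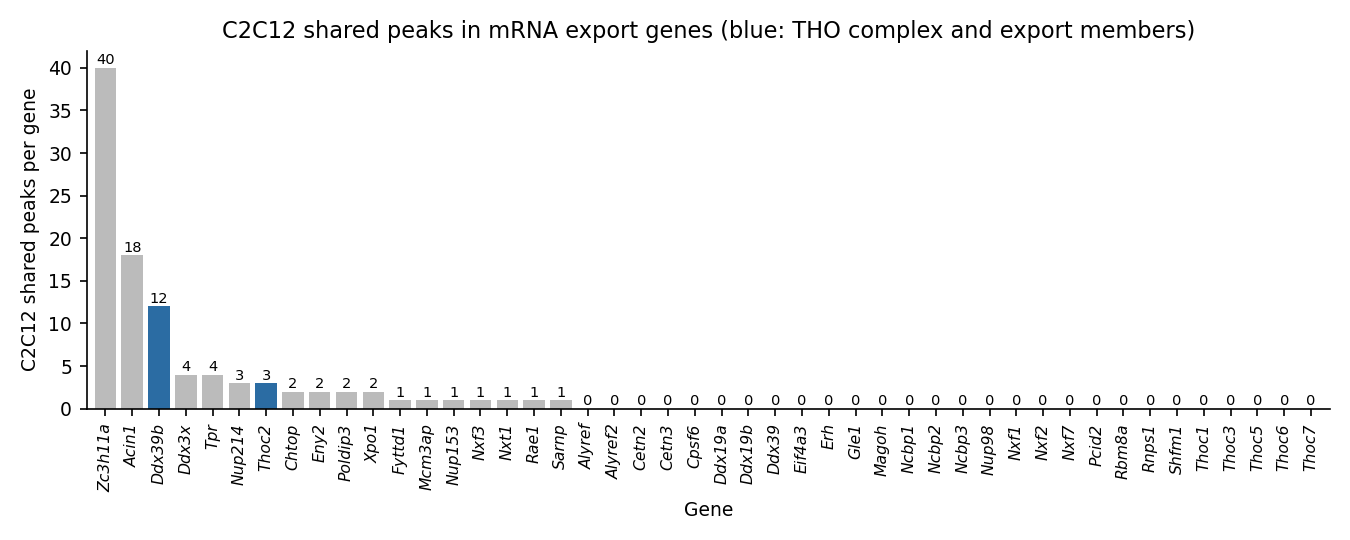
Number of C2C12 shared peaks (y axis) in each of the 8 genes examined (blue) and of the 38 other export genes (grey), in falling order. Zc3h11a (40), Acin1 (18) and Ddx39b (12) hold most of the peaks.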

How the data were processed

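LACE-seq peaks of 6 libraries, 4 of ASC-48 hr and 2 of C2C12, were analysed. The authors trimmed reads with Cutadapt 1.15, removed those matching pre-rRNA, aligned the rest to mm9 with Bowtie 1.2.3 at up to 10 positions per read, and called peaks in each library with Piranha in 20-nt bins, settings that the methods name for ASC. The deposited signal of a peak is its reads per bin, a mean over wider peaks, without normalization; the deposited p-value is Piranha's, unadjusted, with a stated threshold of 0.001. Removal of duplicate reads was not given in the sources used here.

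Overlaps, regions, and copies of 20-nt sequences on either strand of NCBIM37 (mm9) were computed in Python 3.11.15 (numpy 2.4.6, pandas 2.3.3, pysam 0.24.0, scipy 1.17.1, matplotlib 3.10.9, samtools 1.23.1) with GENCODE vM1, and 17 of 17 checks on simulated data gave the known answer. A peak's region was read at its middle over all transcripts, in the order coding exon, 3′ UTR, 5′ UTR, exon of a transcript without coding sequence, intron; the main transcript has the longest coding sequence, then the most exons. Intervals are exact Clopper-Pearson at 95% and cover counting error only. A table of GRCm38.p6 genes gave synonyms of symbols.

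The lists are not normalized between libraries, so groups were compared without a test; Dixon's criterion was applied to the peak counts of the 4 ASC libraries. Members and lists were chosen with earlier results of these data known. Named are all 8 genes, for each the 2 highest shared peaks and every ASC peak, the 5 other export genes with most shared peaks, and genes overlapping a member; further shared peaks of Ddx39b and Thoc2, and Slc25a37, Ddx39, Thoc3 and Cpsf6, were added after their values were seen. Alternatives were stricter p-values and reads, another overlap, single replicates, unique sequences and both strands.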

Additional observations from a re-analysis of the deposited data

Results flagged for a closer look

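Alyref held 1 ASC peak on the strand of its RNA, in B2 T2 alone, and Thoc1 likewise held 1, in B2 T2 alone, while the other 3 ASC libraries listed 0 for each gene. For both genes the gap between B2 T2 and the other libraries was the whole range, a ratio of 1, which is above Dixon's critical value for 4 samples, although the 4 libraries come from 2 biological replicates and are not 4 independent samples. The criterion flags about 1 in 20 groups of independent, normally distributed values by chance, a rate that does not hold for these counts. With counts of 0 and 1 any single peak meets it. B2 T2 listed peaks down to 4 reads per bin and held 19448 peaks, against 7925 to 10759 in the other ASC libraries. The part that this played was not tested.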

How the results depend on the processing

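Ddx39b held most of the shared peaks under each alternative tried, but the numbers depended on how strictly a peak was defined. The 15 shared peaks became 5 at p-values of at most 0.0001, 3 at 0.00001 and 5 with at least 8 reads per bin, all in intron 6 of Ddx39b, which left 1 of the 8 genes with a shared peak under each of these. They became 23 when peaks within 100 nt counted as shared, an alternative chosen after seeing the data. Taking the peaks of 1 library alone gave 27 to 38 peaks in 4 genes. The intronic share of 53.3% became 80% at p-values of at most 0.0001, 80% with at least 8 reads and 100% by the main transcript only, and ranged from 39.5% to 59.3% with 1 library left out. The GGAC share of 13.3% became 0 at p-values of at most 0.0001 and 0.00001 and with at least 8 reads, where 5, 3 and 5 peaks remain, and ranged from 22.2% to 23.7% in single libraries. The 16 other export genes became 8, 5 and 8 under those settings, and 20 to 26 in single libraries. The 7 ASC peaks became 3 at 0.0001, 2 at 0.00001 and 3 with at least 6 reads; leaving out 1 ASC library gave 2 to 7, the 2 without B2 T2. Of 164 values recomputed, 120 stayed within their limits and 44 moved. For a count the limit was a change by a factor of 1.5. Of the 67 values for the 8 genes or the other export genes as sets, 42 stayed and 25 moved. Of the 97 for single genes and intron 6, 78 stayed and 19 moved. The latter include Thoc5, Thoc6 and Thoc7, whose counts of 0 could not move, so the total is no measure of robustness. No paired analysis was possible because the values come from peak lists without a test. Depth is unknown, and peaks of 4 to 6 reads sit at the lower limit of the lists.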
